A study of Mus musculus with 2 samples.

Results

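The genes described here are 7 mouse genes for cation channels and channel subunits that set the resting excitability and rhythm of neurons, listed by gene name, out of 43346 Ensembl genes in the tables. They are Hcn2, Hcn3 and Hcn4, the sodium leak channel gene Nalcn with its subunit genes Unc79 and Unc80, and Trpm4. All 7 were found, with 23 annotated transcripts among them. The RNA was total RNA over 200 nt, depleted of ribosomal RNA, from hindbrain of healthy mice at postnatal day 0, of strain B6NTac;B6NCrl/Lap, with males and females pooled. The series holds 1 group of 2 libraries, replicate 1 from 15 mice and replicate 2 from a pool whose size the labels do not give. The labels call the libraries independent isolates but give both the same donor identifier, so their SD may hold technical as well as biological spread. There is no second condition, and a sign-flip test over 2 libraries cannot give a p below 0.5. Results are therefore levels with their spread, and no p-values are given.

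Channels of the HCN family open when a neuron is hyperpolarised, bind cyclic nucleotides and carry an inward current that drives the membrane back towards threshold. NALCN is a sodium-permeable channel without the usual voltage gate, which passes a steady inward leak and works in a complex with the large proteins UNC79 and UNC80. TRPM4 opens when calcium rises inside the cell and passes monovalent cations but not calcium. In the newborn hindbrain these currents are studied above all in the medulla, where the breathing rhythm arises, and mice without Nalcn die soon after birth with disrupted breathing.

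The libraries held 54313140 (replicate 1) and 77142270 (replicate 2) expected counts, which are estimated numbers of fragments. Levels are in TPM, a length-scaled unit that divides counts by length and has a fixed sum in each library. A few very short RNAs filled more of that sum in replicate 2 than in replicate 1, and the median log2 TPM ratio of replicate 2 over replicate 1 was −0.52 over coding genes that reached 1 TPM in both. That shift is in the SD of every TPM below. The tissue label was checked with marker genes. All 6 hindbrain markers (Hox genes and En2) and all 4 neuron markers reached 1 TPM in both libraries, and none of 5 forebrain markers did.

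The HCN genes are close relatives, so the first question was whether their reads can be told apart. The stretch of coding sequence around the codons of the pore's selectivity filter, a part that HCN channels share, is shown for the 3 genes with the glycine, tyrosine and glycine codons of the filter in capitals. It was found by searching the coding strand in frame for consecutive codons that begin with TG, AT, GG, TA and GG, a run that occurred once in each of these genes and in none of the other members. The sequences are from GENCODE release M21 on mm10, at chr10:79728929-79728988 (plus strand), chr3:89150985-89151044 (minus strand) and chr9:58855561-58855620 (plus strand).
Hcn2: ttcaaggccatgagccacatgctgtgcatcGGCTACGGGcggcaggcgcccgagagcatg
Hcn3: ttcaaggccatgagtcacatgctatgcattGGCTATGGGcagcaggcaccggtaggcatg
Hcn4: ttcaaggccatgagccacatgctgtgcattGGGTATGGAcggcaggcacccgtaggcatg

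Even here the genes differed, at 10 of 60 bases between Hcn2 and Hcn3, 8 between Hcn2 and Hcn4 and 6 between Hcn3 and Hcn4. The longest run of bases that 2 of the coding sequences share exactly was 33 nt for Hcn2 and Hcn3 and 32 nt for each of the other pairs. No run as long as a sequencing read was shared by any pair. In the gene tables the counts of all 7 genes were whole to within 0.005 in both libraries.

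All 7 genes were expressed in the newborn hindbrain, and Hcn2 and Hcn3 led. Each of the 7 reached 1 TPM in both libraries, as did 54.6% of nuclear protein-coding genes. Hcn2 had the highest level and Trpm4 the lowest. The genes are given below by role, with the level in each library.

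Hcn2 (ENSMUSG00000020331, chromosome 10, 79716634 to 79736108, plus strand), which codes for a channel that cyclic AMP modulates strongly, had 28.2 TPM in replicate 1 and 17.75 TPM in replicate 2, from 6654 and 8492 counts. Its mean was 23.0 ± 7.39 TPM (SD, n = 2), above 90.8% of nuclear coding genes in replicate 1 and 89.7% in replicate 2. The authors' interval for Hcn2, of a level the files do not state, ran over 27.2 to 28.6 TPM in replicate 1 and 17.3 to 18.1 TPM in replicate 2. The intervals of the libraries did not overlap for Hcn2 or for any other of the 7 genes, a gap that includes the shift in TPM.

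Hcn3 (ENSMUSG00000028051, chromosome 3, 89146074 to 89160196, minus strand), whose channel responds little to cyclic AMP, had 23.4 TPM in replicate 1 and 16.4 TPM in replicate 2, from 5516 and 8356 counts. Its mean was 19.9 ± 4.93 TPM (SD, n = 2). Hcn4 (ENSMUSG00000032338, chromosome 9, 58823412 to 58863175, plus strand), which codes for the slow channel that paces the heart's sinus node, had 13.5 TPM in replicate 1 and 7.85 TPM in replicate 2, from 3857 and 4541 counts. Its mean was 10.7 ± 4.01 TPM (SD, n = 2). Hcn2 and Hcn3 thus lay above Hcn4 in each library.

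Of the TPM summed over Hcn2, Hcn3 and Hcn4 alone, Hcn2 made up 43.3% in replicate 1 and 42.3% in replicate 2. Hcn3 made up 35.9% and 39.0%, and Hcn4 20.8% and 18.7%. The shares are within a library, so the shift in TPM cancels, and they differed little between libraries, with an SD of 0.751, 2.22 and 1.47 percentage points.

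Nalcn (ENSMUSG00000000197, chromosome 14, 123276634 to 123627144, minus strand), the pore-forming leak channel gene, had 11.6 TPM in replicate 1 and 7.72 TPM in replicate 2. Its mean was 9.65 ± 2.73 TPM (SD, n = 2). It spans 350511 bases, but the files hold only 1 transcript for it, of 7115 nt, with 6448 and 8695 counts. Nalcn lay above 76.6% and 75.8% of nuclear coding genes in replicates 1 and 2, similar ranks in both.

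Unc79 (ENSMUSG00000021198, chromosome 12, 102948859 to 103184065, plus strand) had 10.5 TPM in replicate 1 and 7.80 TPM in replicate 2, from 4778 and 7521 counts. Unc80 (ENSMUSG00000055567, chromosome 1, 66468367 to 66699148, plus strand), which links UNC79 to the channel, had 9.92 TPM in replicate 1 and 4.57 TPM in replicate 2, from 5964 and 8443 counts. Unc79 averaged 9.165 ± 1.93 TPM and Unc80 7.245 ± 3.78 TPM (SD, n = 2). Unc80 had the largest spread of the 7 genes relative to its mean. Its log2 TPM ratio of replicate 2 over replicate 1 was −1.12, while Unc79 and Nalcn had −0.43 and −0.58.

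Trpm4 (ENSMUSG00000038260, chromosome 7, 45302632 to 45333780, minus strand) had 3.31 TPM in replicate 1 and 2.36 TPM in replicate 2, from 1067 and 1539 counts. Its mean was 2.835 ± 0.672 TPM (SD, n = 2). It lay above 54.2% of all nuclear coding genes in replicate 1, but above only 16.4% of those that reached 1 TPM in both libraries. Trpm4 was lowest among the members in each library.

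**Figure D1:**
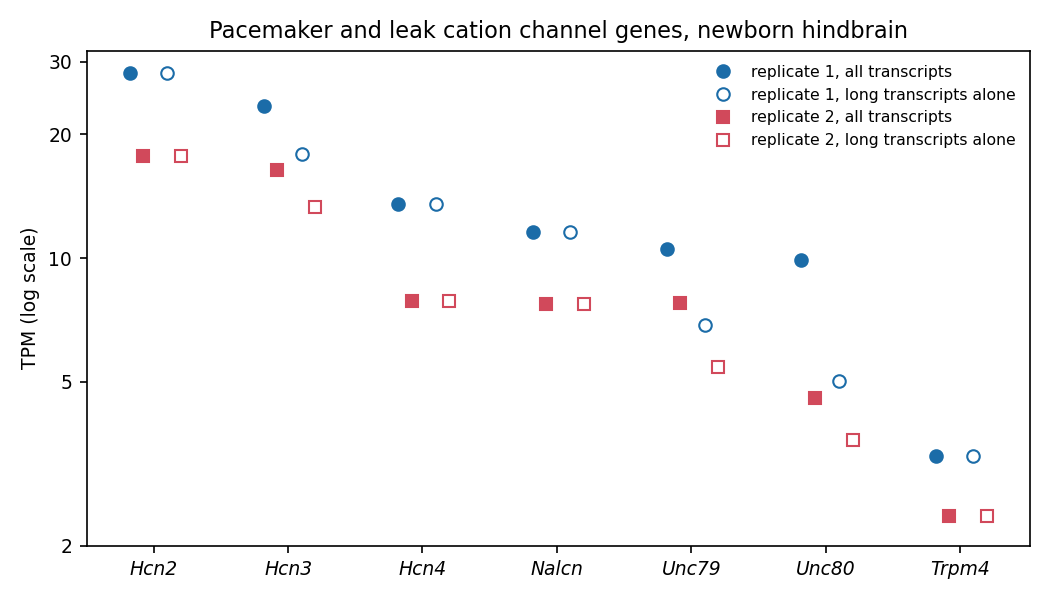
Level of each gene in TPM (log axis) in replicate 1 (circles) and replicate 2 (squares), from all annotated transcripts (filled) and from long transcripts alone, those at least 50% as long as the gene's longest (open). Replicate 1 is above replicate 2 for every gene, Hcn2 is highest at a mean of 23.0 TPM, Trpm4 lowest at 2.835, and Hcn3, Unc79 and Unc80 are lower when short transcripts are left out.

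Neighbours in the order of levels were compared by the difference of their log2 TPM within each library. A pair was said to stand apart where both libraries gave the same order and the mean difference exceeded 3 SD, which 1 of the 6 pairs did. With 2 libraries each SD rests on 1 difference, so this rule is a description and not a test. The log2 TPM of Hcn3 was above that of Hcn4 by 0.79 (replicate 1) and 1.06 (replicate 2), with a mean of 0.93 ± 0.19 (SD, n = 2) or 1.90-fold. Hcn2 exceeded Hcn3 by a mean of 0.19 ± 0.11 and Hcn4 exceeded Nalcn by 0.12 ± 0.14, so neither pair met the rule. Nalcn minus Unc79 was 0.14 in replicate 1 and −0.015 in replicate 2. Unc79 exceeded Unc80 by 0.43 ± 0.48, and Unc80 exceeded Trpm4 by 1.27 ± 0.45, just under 3 SD. The pairs that involve Hcn3, Unc79 or Unc80 depend on how their short transcripts are treated, which is described next.

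The libraries were also compared by counts, with the shift in TPM left out. When expected counts were scaled to the library, the log2 ratio of replicate 2 over replicate 1 was −0.27 for Hcn4, −0.16 for Hcn2 and −0.08 for Nalcn. It was −0.01 for Unc80 and 0.02 for Trpm4, and 0.09 for Hcn3 and 0.15 for Unc79. Counting error on these ratios was 0.06 for Trpm4 and at most 0.03 for the other members, as 1 standard error. None of the 7 genes passed 1.5-fold in either direction. Of 15314 nuclear coding genes whose mean count reached 10, 18.9% did. That set reaches far lower counts than the members, whose mean counts ran from 1303 (Trpm4) to 7573 (Hcn2). Among coding genes of similar count the SD of the ratio was 0.167 for those near Hcn2 and 0.310 for those near Trpm4. Staying within 1.5-fold therefore does not set the members apart. Replicate 2 was lower for 4 of the 7 genes, against 50.6% of those coding genes, and the members' median ratio was −0.00786 against −0.00409 over the coding genes. Scaled to spike-in totals instead, the ratios of Nalcn and Unc80 turned to 0.023 and 0.093.

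Against coding genes of similar count (within 2-fold), the members were not unusual. For Hcn4, the member furthest from 0, 15.6% of 4558 such genes lay as far from 0 or further. For Hcn2 the share was 31.7% of 3174 genes, and for Unc80 it was 96.0% of 3293. The Unc80 counts thus agreed closely between libraries although its TPM did not.

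**Figure D2:**
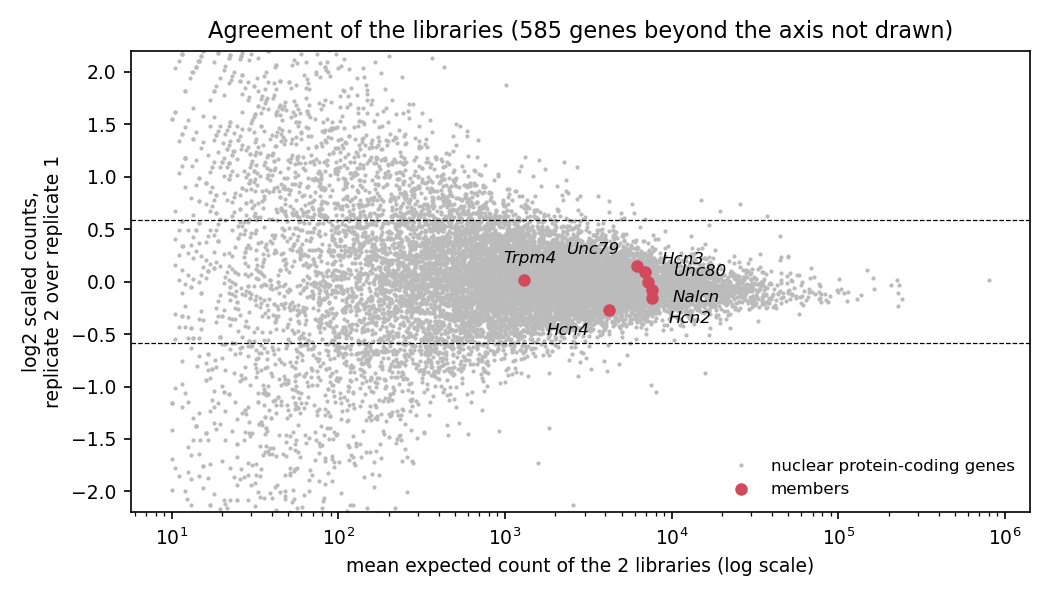
Log2 ratio of scaled counts, replicate 2 over replicate 1, against the mean expected count of the 2 libraries (log axis), for nuclear protein-coding genes whose mean count reached 10 (grey) and the 7 members (red). Dashed lines mark 1.5-fold, and 585 genes lie beyond the axis limit of 2.2. All members lie between the lines, from −0.27 for Hcn4 to 0.15 for Unc79.

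For Unc80 the gap between TPM and counts, beyond the shift shared by coding genes, lay in short annotated transcripts. A short transcript needs few counts to reach a high TPM, because the count is divided by an effective length, its length less about the mean fragment length (314.9 nt in replicate 1 and 296.6 nt in replicate 2). The transcript Unc80-205, of 587 nt, had 75.0 counts in replicate 1 and 35.0 in replicate 2. These were 1.26% and 0.415% of the gene's counts, but 33.8% and 15.9% of its TPM. The full-length transcript Unc80-201, of 14331 nt, had 96.6% and 99.2% of the counts, but 50.6% and 79.1% of the TPM.

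Unc80-205 is annotated as a retained intron and lies at chr1:66673730-66674316 (mm10, plus strand). It is a single exon, of which 124 nt are coding exon of Unc80-201 and 463 nt are intron on either side. The 60 bases at each edge of that exon are shown, from GENCODE M21, with exon in capitals and intron in lower case. The intron ends in ag before the exon and begins with gt after it, as spliced introns usually do.
Unc80 intron into exon (chr1:66673957-66674016): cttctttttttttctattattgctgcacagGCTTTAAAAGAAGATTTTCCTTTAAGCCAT
Unc80 exon into intron (chr1:66674081-66674140): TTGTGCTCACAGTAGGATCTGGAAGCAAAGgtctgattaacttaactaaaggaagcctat

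With Unc80-203, of 1167 nt and 88.6 and 33.0 counts, the 2 retained-intron transcripts of Unc80 held 46.6% of its TPM in replicate 1 and 20.9% in replicate 2. They held 2.74% and 0.805% of its counts. The short coding model Unc80-204, of 1912 nt, had 36.8 and 0 counts, and Unc80-202 had 0 in both libraries. The TPM of Unc80-201 alone was 5.02 in replicate 1 and 3.61 in replicate 2, a log2 ratio of −0.48, near the −0.52 of coding genes in general. Whether reads in these introns came from unspliced RNA was not tested.

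Hcn3 had the same feature to a smaller extent. Its full-length transcript Hcn3-201, of 4002 nt, held 98.2% and 97.6% of the counts and 76.8% and 81.2% of the TPM. The retained-intron transcript Hcn3-202, of 533 nt, had 97.6 counts in replicate 1 and 72.8 in replicate 2. Hcn3-203, of 909 nt, had 0 counts in replicate 1 and 125 in replicate 2. Both contain part of the intron just before the exon with the selectivity filter codons, and they share the edge shown here (minus strand, intron in lower case, exon in capitals). Since the models overlap, the split of counts between them is uncertain, so their sum is given too, 97.6 and 197 counts. Hcn3-204 had 0 counts in both libraries.
Hcn3 intron into exon (chr3:89151051-89151110): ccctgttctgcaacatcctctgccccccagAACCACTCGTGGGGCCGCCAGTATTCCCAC

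Unc79 was spread over more models than any other member, 9 in all. The longer coding transcripts led. Unc79-208, of 7965 nt, held 52.9% of the counts in replicate 1 and 48.2% in replicate 2, Unc79-202, of 8874 nt, held 28.1% and 27.6%, and Unc79-201, of 7762 nt, held 11.9% and 16.7%. The short coding model Unc79-203, of 691 nt, had 74.0 and 105 counts, but 22.75% and 20.55% of the gene's TPM. Unc79-205, a long coding model of 7838 nt, had 2.05 and 130 counts. Both retained-intron models had counts in each library, Unc79-207 with 71.3 and 83.8 and Unc79-209 with 191 and 240. Unc79-204 and Unc79-206 had 0 counts in both. The 5 short models together held 7.04% and 5.70% of the counts and 34.7% and 30.1% of the TPM. Most fragments of Unc79 were therefore assigned to long coding transcripts in both libraries.

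Hcn2 has a pair of coding transcripts of nearly equal length, and the longer, Hcn2-202 (3195 nt), took 99.6% of its TPM in replicate 1 and 96.5% of it in replicate 2. Hcn2-201 (3089 nt) had 27.5 and 285 counts, with authors' intervals of 0.00282 to 0.572 TPM in replicate 1 and 0.00947 to 2.08 TPM in replicate 2, so its share is poorly determined. Hcn4, Nalcn and Trpm4 had 1 transcript each in the files' annotation, GENCODE M4. Release M21 lists 7 for Nalcn and 9 for Trpm4, several of them retained introns, and these other forms have no values of their own in the tables. The Hcn4 model of the files is 3798 nt, against 6118 nt in M21 and a coding length of 3603 nt. The Hcn4 values therefore rest on the shorter model.

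**Figure D3:**
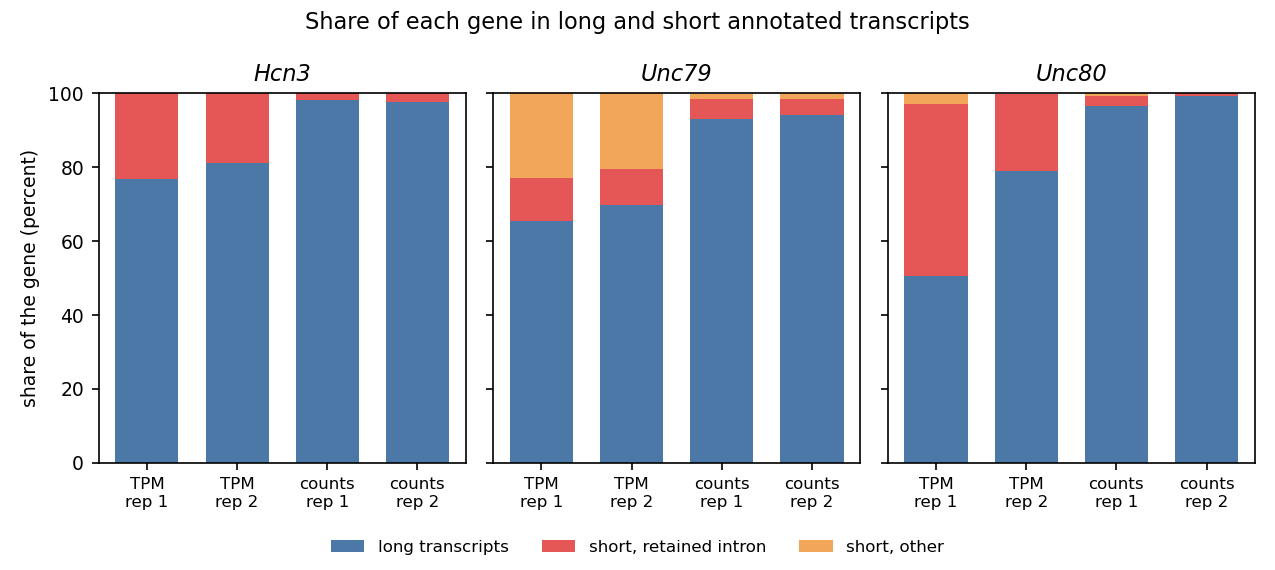
Share (percent) of Hcn3, Unc79 and Unc80 held by long transcripts (at least 50% as long as the gene's longest), by short retained-intron transcripts and by other short transcripts, measured by TPM and by expected counts in each replicate. Short transcripts hold 49.4% and 21.01% of the TPM of Unc80 in replicates 1 and 2, but 3.36% and 0.805% of its counts.

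With long transcripts alone, the RNA levels of the NALCN complex genes were unequal in both libraries. RNA levels do not give the make-up of the protein complex. Nalcn has 1 annotated transcript here, so the filter could lower only Unc79 and Unc80. The Unc80-201 model used for the values is 14331 nt, against 13613 nt in M21. Nalcn stayed at 11.6 TPM in replicate 1 and 7.72 TPM in replicate 2, Unc79 had 6.88 and 5.44 TPM, and Unc80 had 5.02 and 3.61 TPM. Nalcn then exceeded Unc80 2.31-fold in replicate 1 and 2.14-fold in replicate 2, a log2 ratio of 1.15 ± 0.08 (SD, n = 2). It exceeded Unc79 1.68-fold and 1.42-fold, a log2 ratio of 0.63 ± 0.17. With all transcripts the log2 ratio of Nalcn over Unc80 was 0.49 ± 0.38, and over Unc79 0.06 ± 0.11. Another measure, counts per base of each gene's longest transcript, gave log2 ratios of 1.12 ± 0.05 and 0.65 ± 0.16. It too could lower only Unc79 and Unc80 against Nalcn, so it is not a separate check of the direction. For Unc79 the longest transcript, Unc79-202 of 8874 nt, was not the one with the most counts. The length filter was chosen after the values were seen.

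The same filter changed 4 more statements about the order of levels. Hcn3 had 17.9 and 13.3 TPM by it, so that Hcn2 stood apart from Hcn3 by a log2 difference of 0.53 ± 0.17 (SD, n = 2), and the gap of Hcn3 over Hcn4, 0.59 ± 0.25, no longer exceeded 3 SD. Unc79 minus Unc80 became 0.52 ± 0.10 and Unc80 minus Trpm4 0.61 ± 0.01, both over 3 SD. For Unc80 minus Trpm4 the difference itself was smaller than with all transcripts, and it passed because its SD was smaller still. By mean TPM the order itself, from Hcn2 down to Trpm4, was the same in both measures. Within replicate 2 and with all transcripts, however, Unc79 (7.80 TPM) lay just above Nalcn (7.72 TPM).

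Genes that overlap the members could add reads if strand was not used in counting, which the files do not state. Pklr, the gene of liver and red cell pyruvate kinase, shares 711 nt with the end of Hcn3 on the opposite strand, and had 0 counts in both libraries. Rpl14-ps1, a ribosomal protein pseudogene, lies within Trpm4 on the opposite strand and had 26.5 and 8.94 TPM. It does not touch the exons of the only Trpm4 transcript with values. Gm27976 overlaps an exon of Unc79 by 84 nt and had 0 counts, as did Gm37181 in Unc80. Gm27976 is only 162 nt long, shorter than the mean fragment (314.9 nt in replicate 1 and 296.6 nt in replicate 2). A model that short can hardly be assigned fragments, so its 0 counts cannot show whether it adds reads to Unc79. Exon overlap was counted only against each member's transcript with the highest TPM. By that count Pklr was the only other gene with values that shares exon bases with a member. Gm49297 within Nalcn, and Gm44324 and Gm47201 within Unc79, share no exon bases with those transcripts and were not analysed here.

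Genes that work with the members were read from lists of names. The number of listed genes at 1 TPM, here and below, stands beside 54.6% of all nuclear protein-coding genes at that level in both libraries. The lists are short, and these numbers are not read as a result about them. For the HCN channels 4 of 6 partner genes reached 1 TPM in both libraries. Flna, the actin-binding filamin A, which is broadly expressed, had 77.1 and 62.0 TPM. Kctd3, whose protein raises the surface level of HCN3, had 18.1 and 14.15 TPM, so Hcn3 exceeded it 1.29-fold in replicate 1 and 1.16-fold in replicate 2. Pex5l, which codes for the HCN trafficking subunit TRIP8b, had 5.56 and 5.52 TPM, and Hcn2 exceeded it 5.07-fold and 3.22-fold. Mrvi1 and Lrmp, whose proteins bind and tune HCN4, were lowest, at 0.490 and 0.640 TPM and at 1.23 and 0.330 TPM.

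For NALCN 4 of 6 partner genes reached 1 TPM in both libraries. Fam155a, which codes for a membrane protein that helps NALCN fold and reach the surface, had 25.9 TPM in replicate 1 and 18.2 TPM in replicate 2. Nalcn was lower than Fam155a in both, with a log2 ratio of −1.20 ± 0.06 (SD, n = 2). Chrm3, a muscarinic receptor gene, had 10.3 and 6.80 TPM, close to Nalcn. Src, whose kinase acts in the opening of NALCN by receptors, had 37.65 and 25.5 TPM. Tacr1, the receptor for substance P, had 2.08 and 0.970 TPM, so Nalcn was 5.57-fold and 7.96-fold higher, and Casr, the calcium-sensing receptor gene, was lowest at 0.200 and 0.360 TPM.

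Potassium leak channels of the two-pore family pass the outward current that NALCN opposes. Of 14 such genes 7 reached 1 TPM in both libraries, and Kcnk7, Kcnk16 and Kcnk18 tied for lowest with 0 counts. Kcnk9, which codes for the acid-sensitive channel TASK-3, was highest at 30.2 TPM in replicate 1 and 20.5 TPM in replicate 2. Nalcn was lower than Kcnk9, with a log2 ratio of −1.39 ± 0.02 (SD, n = 2). Kcnk1 had 15.5 and 11.8 TPM, above Nalcn, and Kcnk3, the gene of TASK-1, had 8.40 and 4.21 TPM, below it. Kcnk10, Kcnk2 and Kcnk12 had means of 4.25, 3.935 and 3.485 TPM.

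For TRPM4, Abcc8, the sulfonylurea receptor gene, had 3.93 TPM in replicate 1 and 3.15 TPM in replicate 2, close to Trpm4 itself. The calmodulin genes Calm2 and Calm3, which serve many channels, were far higher, at means of 210.2 and 455 TPM. Of 13 other TRPM and TRPC genes 7 reached 1 TPM in both libraries. Trpm3 led at 11.02 and 9.47 TPM, followed by Trpc1 at 6.41 and 4.45 TPM and by Trpm7 at 4.45 and 5.50 TPM. Trpc5, Trpc7 and Trpm2 had means of 3.52, 2.26 and 1.84 TPM. Trpm5, the nearest relative of Trpm4 and like it calcium-activated (chosen after its values were seen), had 0.830 and 0.400 TPM, so Trpm4 exceeded it 3.99-fold and 5.90-fold. Trpm1 and Trpm8 were lowest, with means of 0.015 and 0.025 TPM.

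Genes of the breathing circuits were present at widely different levels, with 8 of 12 at 1 TPM or more in both libraries, beside 54.6% of nuclear coding genes. Sst, a peptide of preBötzinger and many other neurons, had 107 TPM in replicate 1 and 60.8 TPM in replicate 2. Tac1, the gene of substance P, had 15.7 and 8.62 TPM, and Lbx1, a factor of dorsal hindbrain interneurons, had 8.97 and 5.17 TPM. Nmbr, a receptor on sigh-generating neurons, had 0.670 and 0.520 TPM. Dbx1, which marks the embryonic progenitors of preBötzinger neurons, was lowest at 0.120 and 0.130 TPM. These are levels in the whole hindbrain, where fewer cells of a type and less RNA per cell cannot be told apart.

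**Figure D4:**
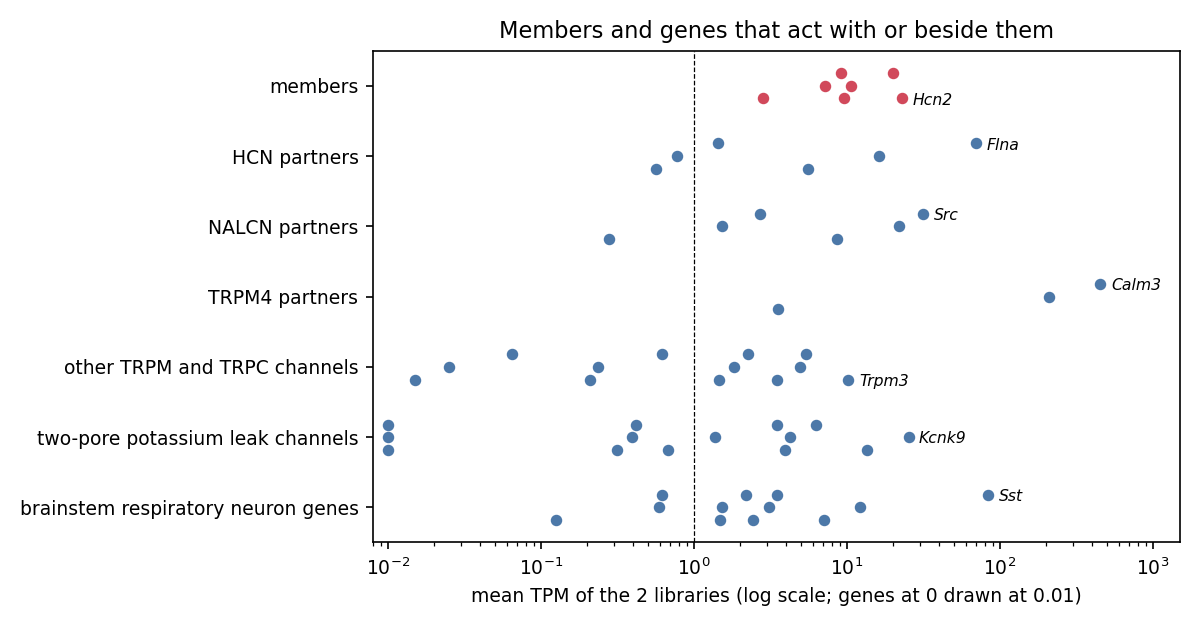
Mean TPM of the 2 libraries (log axis) for the 7 members (red, top row) and for each gene of 6 lists of related genes (blue), with the highest gene of each row named and 1 TPM marked by the dashed line. The members lie between 2.835 and 23.0 TPM, while the two-pore potassium channel genes range over 0 to 25.3 TPM.

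Nearness in level was measured between each member and the listed genes. Over the 2 libraries and 53 genes of the lists, the smallest summed distance in log2(TPM + 0.1) was 0.16, between Hcn2 and Fam155a, which was also nearest to Hcn3 (0.30). Chrm3 was nearest to Unc79 (0.22) and Nalcn (0.34), Lbx1 to Unc80 (0.32), Oprm1, the gene of the µ-opioid receptor, to Trpm4 (0.23) and Tac1 to Hcn4 (0.35). With 2 libraries of 1 group such closeness describes a level and not a pattern across conditions.

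Hcn4 and Trpm4 are also known from heart and smooth muscle, so markers of both were read beside them. Of 7 heart muscle genes 0 reached 1 TPM in both libraries, and their summed level was 8.53 TPM in replicate 1 and 0.810 TPM in replicate 2. Of that sum in replicate 1, Tnni3 gave 5.04 TPM from only 8 counts, and Tnni3 and Myl7 had 0 counts in replicate 2. Of 4 smooth muscle genes only Acta2 reached 1 TPM in both, at 2.80 and 1.80 TPM. Actc1, a heart actin gene, had 2.11 and 0.300 TPM, from 200 and 59 counts. By scaled counts the listed muscle genes did not all go the same way. Tnnt2 and Cnn1 were higher in replicate 2, on few counts, and the others were lower. In TPM every member, Hcn4 included, was higher in replicate 1. The part of heart or smooth muscle cells in the level of Hcn4 was not tested.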

How the data were processed

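Per the labels, RNA was sequenced as stranded paired-end libraries with spike-ins. The authors deposited a gene table and a transcript table per library, made from transcriptome alignments on mm10 with annotation M4, per the text notes deposited beside them. Which aligner and quantifier made them is not given in the sources used here. The deposited values, per the file headers, are expected counts (estimated fragments), TPM, FPKM (a constant multiple of TPM, not used further), percent of gene TPM per transcript, and interval bounds on TPM, kept as a score since no source gives their level. Whether counting used strand is not stated.

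Symbols, transcript types and coordinates came from GENCODE M21 on the same build by Ensembl identifier (42462 of 43346 genes matched). Irag1, Irag2 and Fam155b were matched as Mrvi1, Lrmp and Tmem28 through RefSeq synonyms. Expected counts were rounded, scaled by TMM in edgeR 4.0.16 (R 4.3.3) using genes whose mean count reached 10, and turned into log2 values with a prior count of 2. The ratio step was tested on simulated data. Alternatives were DESeq2 1.42.0 size factors, total counts, spike-in totals, a prior count of 0.5, no filter, posterior mean TPM, TPM over nuclear coding genes, pseudocounts of 0.1 and 1 TPM, detection at 0.5 and 2 TPM, and each library alone. Reads carry no molecular identifiers, so counting errors cover counting only.

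The members and lists were chosen with earlier results of these data known. The text names all members and their transcripts with values, the genes with at least 5% of a list's summed TPM, the lowest 2 of each list, the listed gene nearest to each member, and the genes annotated over a member. For the lists, 3 genes are not reported here and were left out of list sizes, counts and nearness after values were seen. A long transcript is at least 50% as long as the gene's longest, a limit chosen after the data were seen.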

Additional observations from a re-analysis of the deposited data

How the results depend on the processing

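No paired analysis was possible because the series has 1 group. Over 36 results, 140 of 176 alternative values were labelled the same as the main value. For levels and shares that label meant within 1 SD of the main value. With 2 libraries, each single library always lies within 1 SD of their mean. Single-library levels and shares therefore had to be labelled the same, and the count does not measure robustness. Rescaled to nuclear coding genes alone, TPM was 96.4 for Hcn2, 84.2 for Hcn3, 44.5 for Hcn4, 40.7 for Nalcn, 39.0 for Unc79, 29.5 for Unc80 and 12.03 for Trpm4, because those genes hold 28.1% and 19.3% of TPM in replicates 1 and 2. With long transcripts alone, a choice made after the data were seen, Unc80 had 4.315 TPM, against 7.245 with all transcripts and within 1 SD of it, Unc79 had 6.16 against 9.165, and Hcn3 had 15.6 against 19.9. The log2 differences were 0.53 for Hcn2 minus Hcn3, 0.59 for Hcn3 minus Hcn4, 0.63 for Nalcn minus Unc79, 0.52 for Unc79 minus Unc80 and 0.61 for Unc80 minus Trpm4, and Nalcn over Unc80 was 1.15. Counts per base of the longest transcript gave 0.65 for Nalcn over Unc79 and 1.12 over Unc80. Like the filter, this measure could lower only Unc79 and Unc80 against Nalcn. Without replicate 1, Nalcn minus Unc79 was −0.015, against 0.14 without replicate 2.

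HCN shares of undivided counts were 40.6% for Hcn2 and 22.65% for Hcn4, and of long transcripts 46.4%, 32.15% and 21.4% for Hcn2, Hcn3 and Hcn4. By counts the leading transcript held 97.9% of Hcn3, 50.6% of Unc79 and 97.9% of Unc80, and by posterior means 36.1% of Unc79. Scaled to spike-ins, the library ratio was −0.057 for Hcn2, 0.19 for Hcn3, −0.17 for Hcn4 and 0.25 for Unc79, and turned to 0.023 for Nalcn and 0.093 for Unc80. At 2 TPM, 4 genes of the TRP list and 5 of the respiratory list counted as detected. Causes beyond these constructions were not tested. With 2 libraries, each SD rests on 1 difference.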
